A study of Mus musculus with 14 samples.

Results

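Gene expression in mouse embryos conceived by in vitro fertilisation (IVF) was compared before and after the first division, at the 1-cell and the 2-cell stage. All 22493 gene symbols of the deposited table in the 4 IVF libraries were considered, out of 14 libraries in all, and the 13453 genes that reached 1 FPKM in 2 or more of the 14 libraries were tested. Both stages came from C57BL/6J oocytes fertilised with CAST/EiJ sperm, with no further treatment named. The 1-cell libraries were made from pools of 32 and 31 embryos and the 2-cell libraries from pools of 25 and 25, so a value is the average of a pool and variation between embryos cannot be seen. The other 10 libraries covered donor cumulus cells and embryos cloned from them by nuclear transfer (SCNT), where the oocyte's own chromosomes are removed and a cumulus cell nucleus is put in. They are used here for the spread, for the level of genes in donor cells, and for 1 comparison of stage changes. The sources used here give no hour of collection after fertilisation. The 2 values given below for a gene at a stage are its 2 libraries, and nothing in the labels says that these came from separate experiments. Each p-value therefore measures only spread between libraries. That spread was estimated over all 7 groups of 2 libraries, so the SCNT and donor libraries also bear on which genes are called.

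A mouse oocyte is transcriptionally silent when it is fertilised and carries a store of maternal mRNA that drives the first cell cycle. The embryo's own genome is then activated, weakly in the 1-cell embryo and strongly in the 2-cell embryo, while most of the maternal store is degraded. A few families, among them the Zscan4, Trim43, Pramel and Usp17-like genes, are known for a burst of transcription at the 2-cell stage.

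Expression was given as FPKM, which counts fragments per length of transcript and per size of library, so a value is a share of the library and not an amount of RNA per embryo. In pools of whole embryos, a lower share from degradation and one from dilution by other transcripts cannot be told apart. Between 8450 and 8493 genes reached 1 FPKM in the 1-cell libraries and between 8877 and 8942 in the 2-cell libraries. Relative to the deeper 1-cell library at 1, depth was 0.927 in the other 1-cell library and 0.779 and 0.796 in the 2-cell libraries. Spearman's rho across genes was 0.988 between the 1-cell replicates and 0.98 between the 2-cell replicates. Of 10 oocyte markers, all 10 were at 1 FPKM or more in both libraries of both stages, with a summed level of 9200 to 9360 FPKM at the 1-cell and 1760 to 1790 FPKM at the 2-cell stage. Of 12 cumulus and granulosa markers, none reached 1 FPKM in both 1-cell libraries, and their sum was 1.56 to 2.11 FPKM at the 1-cell and 84.7 to 87.6 FPKM at the 2-cell stage, against 20400 to 26800 FPKM in donor cells. The sum of 7 sperm markers was 11.9 to 13.1 FPKM at the 1-cell and 1.18 to 2.58 FPKM at the 2-cell stage. Of these 7, Prm2 was the 1 marker at 1 FPKM or more in both 1-cell libraries, and Smcp was at 0 at both stages.

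Most of the transcriptome changed between the stages. At an adjusted p under 0.05 in limma's moderated test, 9090 genes (67.6%) were called: 4088 genes were higher in 2-cell embryos (30.4% of those tested) and 5002 were lower (37.2%), while the median log2 difference of all tested genes was -0.06. The rises were the larger changes. On the log2(FPKM + 1) scale, 701 genes rose and 355 fell by at least 8-fold, 141 rose and 19 fell by at least 32-fold, and 21 rose and 0 fell by at least 128-fold. A gene was called switched on if it rose, was below 1 FPKM in both 1-cell libraries and reached at least 5 FPKM in both 2-cell libraries. This held for 612 genes (4.55%). The mirror image, called lost, held for 176 genes (1.31%). The summed FPKM was lower in the 2-cell libraries, at 242411 and 235475, than in the 1-cell libraries, at 344311 and 345126. The balance of calls rested on this: 45.0% of the called genes were higher with the values as deposited, and 56.4% (4770 higher and 3685 lower) after all libraries were scaled to an equal sum, which moved the median of all genes to 0.08.

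**Figure D1:**
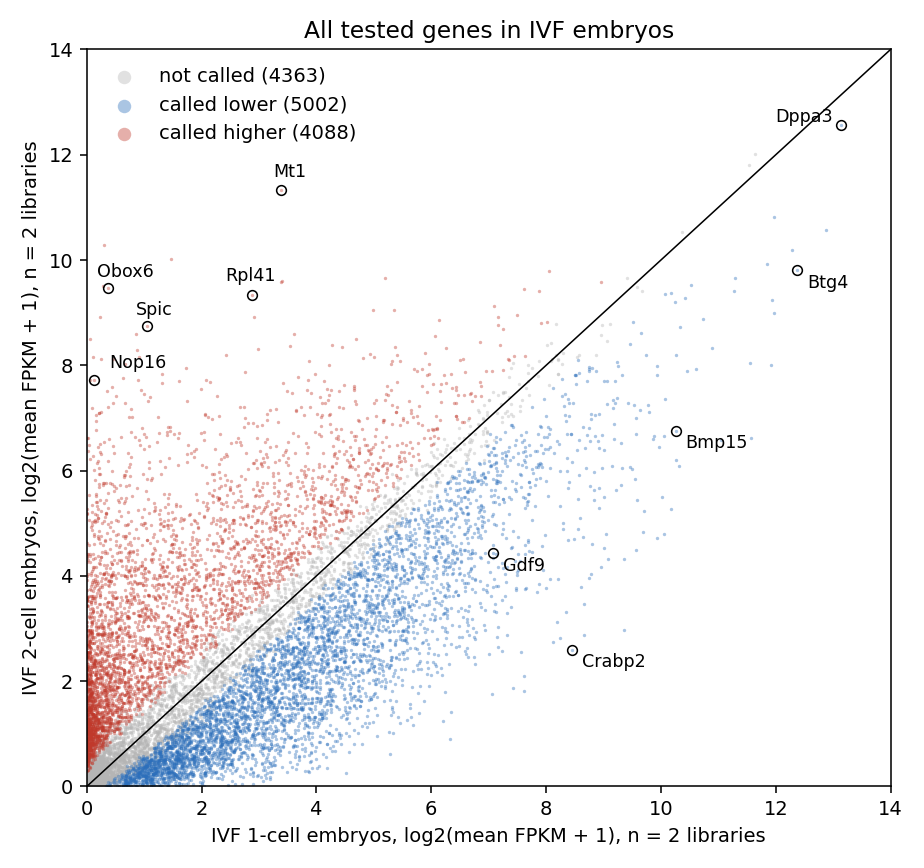
Mean FPKM of each tested gene in IVF 1-cell embryos (horizontal) and IVF 2-cell embryos (vertical), both as log2(mean FPKM + 1) over 2 libraries, coloured by the call in limma's test at an adjusted p under 0.05. The line marks equal values. The 4088 genes called higher reach far above the line at the left edge, where genes were near 0 in 1-cell embryos.

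The make-up of the libraries turned over within this division. The genes called lower held 79.5% and 79.3% of the summed FPKM of the 1-cell libraries and 30.3% and 31.1% of the 2-cell libraries. The genes called higher went from 6.93% and 7.06% to 50.1% and 48.8%. These shares describe classes that were chosen from the same libraries, so they are a description and not a test. The switched-on genes, at 0.0575% and 0.0599% before, held 8.54% and 8.15% of the 2-cell libraries. The 1-cell libraries were also more concentrated: their 100 most abundant genes held 39.1% and 38.6% of the sum, against 27.2% and 27.8% for the 100 most abundant of each 2-cell library.

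**Figure D2:**
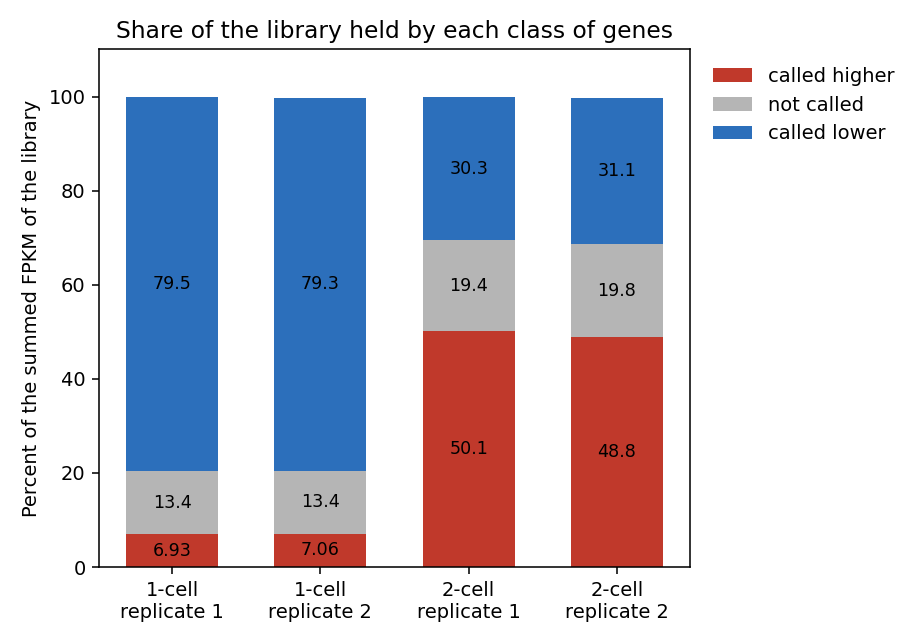
Share of the summed FPKM of each IVF library (vertical, percent) held by genes called higher, not called and called lower between the stages. Called-lower genes fill 79.5% and 79.3% of the 1-cell bars and 30.3% and 31.1% of the 2-cell bars.

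The steepest rise of all was that of Gm11517, from 0.383 and 0.0824 FPKM in 1-cell to 1310 and 1180 FPKM in 2-cell embryos (log2 difference 9.99, SE 0.45). Gm4850 rose from 1.5 and 2 to 1050 and 1040 FPKM (8.57, SE 0.29). Both were also among the 10 most abundant genes of the 2-cell stage. Genes with a symbol other than a Gm number or a Rik name are described next, from the 12 with the largest rises. Obox6, an oocyte-specific homeobox family member at chr7:16418599-16425028 (build mm9), stood at 0.244 and 0.349 FPKM in 1-cell and 696 and 715 FPKM in 2-cell embryos. Mt1, which encodes a metal-binding metallothionein and lies at chr8:96702989-96704227, went from 9.59 and 9.21 to 2670 and 2450 FPKM, a log2 difference of 7.94 (SE 0.24, limma adjusted p = 4.3e-10). It was the only one of these genes that was already well above 1 FPKM in 1-cell embryos. Spic, an ETS-domain transcription factor, rose from 0.901 and 1.27 to 461 and 390 FPKM (log2 difference 7.68, SE 0.43). H47, a selenoprotein of the endoplasmic reticulum, rose from 0.745 and 0.882 to 409 and 364 FPKM (7.74, SE 0.32). Ctsl, the lysosomal protease cathepsin L, rose from 0.718 and 0.952 to 333 and 291 FPKM (7.42, SE 0.23), with 28.1% of its sequence shared with other genes. Wherever more than 15% of a gene's 50-base stretches also occur in other genes, reads cannot be placed with certainty and its values are called uncertain below. The group further held Timd2, a T-cell immunoglobulin and mucin domain receptor, at 0 and 0.0873 FPKM before and 221 and 196 FPKM after, and Rfpl4b, a RING finger protein, at 0.735 and 0.442 before and 253 and 270 FPKM after. The 12 genes were chosen for a large rise and for stages that do not overlap.

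Of the genes known for the 2-cell stage, those tested rose almost without exception. The list held 49 genes, of which 45 were in the deposited table and 39 passed the filter. Tcstv1, Tcstv3, Tdpoz5 and Gm4340 were at 0 FPKM in all 4 IVF libraries and were not tested, nor were Zscan4e and Dub2a. A member near 0 in 1-cell embryos that passed only through 2-cell libraries could not be called lower, so the count is a description. Of 39 tested members of this list, 37 were called higher and 0 lower in limma's test (0 lower also at an unadjusted p under 0.05; 1 when only the 4 IVF libraries were fitted), with a median log2 difference of 3.84, against -0.06 over all genes. Many of them sit in young gene families, and 29 of the 39 have uncertain values for shared sequence. Among the others, Slc34a2, a sodium-phosphate cotransporter, rose from 0.144 and 0.0997 to 143 and 122 FPKM. Zscan5b, a zinc finger protein, rose from 1.92 and 2.2 to 224 and 192 FPKM. Zfp352, another zinc finger gene, rose from 1.95 and 2.78 to 155 and 161 FPKM. Zscan4d (uncertain), of the best known family of this kind, reached 41.4 and 36.5 FPKM. The members that missed the threshold were Arg2, a mitochondrial arginase, which was already abundant at 147 and 151 FPKM and stood at 132 and 111 FPKM in 2-cell embryos, and D5Ertd577e, at 6.5 and 5.96 and then 5.72 and 6.28 FPKM. Arg2 has uncertain values.

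Some switched-on genes lay side by side. On 4 chromosomes, 3 consecutive tested genes were all switched on: Trim43c, 9330159M07Rik and Trim43b at chr9:88734002-88987673, Gm1995, Gm2016 and Gm2022 at chr12:89099798-89135166, B020004J07Rik, Gm12794 and Gm12789 at chr4:101507574-101662836, and 4933406J08Rik, Sord and Duoxa2 at chr2:122012008-122128621 (mm9). All genes of these runs but 9330159M07Rik, B020004J07Rik and 4933406J08Rik have uncertain values for shared sequence. Whether runs of this length are more frequent than the 4.55% of tested genes switched on would give was not tested. No run of 3 lost genes was found.

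Regulators of transcription changed in both directions. Of 37 tested homeobox factors and candidate activators of the embryonic genome, 23 rose and 8 fell (median 1.18). The Obox homeobox family changed over between the stages: Obox6 and Obox3 rose, while Obox5 fell from 1240 and 1210 to 277 and 305 FPKM (log2 difference -2.07, SE 0.4, limma adjusted p = 0.00054) and Obox1 and Obox2 fell by 4.25 and 4.81 on the log2 scale. Obox1, Obox2 and Obox3 are uncertain because they share sequence. Gabpa, the DNA-binding subunit of GA-binding protein, rose from 0.204 and 0.153 to 94 and 86 FPKM. Yy1, a zinc finger factor that binds promoters and enhancers, rose from 1.26 and 1.6 to 69.6 and 74.4 FPKM. Kdm5b, a demethylase of histone H3 lysine 4, rose from 1.27 and 2.17 to 109 and 105 FPKM. The subunits of the CCAAT-binding factor NF-Y did not move together: Nfyb rose by 3.1 on the log2 scale to 65.3 and 73.8 FPKM, and Nfyc was called lower. The number of fallen members was 5 after scaling to equal sums.

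The parts of the transcription machinery itself rose more often than they fell. Of 67 RNA polymerase subunits and general transcription factors, 44 were higher and 13 lower (median 1.13), or 6 lower after scaling to equal sums. The largest rises were in RNA polymerase I, which transcribes ribosomal RNA genes, and in an elongation factor. Polr1c, a subunit shared by polymerases I and III, rose from 6.19 and 5.17 to 157 and 136 FPKM (log2 difference 4.47, SE 0.18). Polr1e, a polymerase I subunit, rose from 2.26 and 2.43 to 76.2 and 64.5 FPKM (4.41, SE 0.31). Ell2, an elongation factor of polymerase II, rose from 5.03 and 4.34 to 91.1 and 89.9 FPKM. Against this, the polymerase II factors Gtf2b and Gtf2a2 fell, Gtf2b from 338 and 354 to 108 and 98.7 FPKM and Gtf2a2 from 277 and 286 to 74.4 and 85.5 FPKM.

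Genes for making ribosomes and for translation mostly rose. Of 88 genes of the nucleolus and ribosome assembly, 63 were higher and 9 lower (median 1.36), or 4 lower after scaling to equal sums. Of 83 cytosolic ribosomal protein genes, 74 were higher and 2 lower (median 2.07), though 64 of the 83 are uncertain for shared sequence. Nop16, a nucleolar protein of large-subunit assembly, rose from 0.0481 and 0.129 to 222 and 199 FPKM. Nol11, which acts in the processing of small-subunit RNA, rose from 1.12 and 0.964 to 99.7 and 97.3 FPKM. Nop2, an RNA methyltransferase of the nucleolus, rose from 0.259 and 0.27 to 43.9 and 40.8 FPKM. These were absent or nearly so in 1-cell embryos and abundant after division. Rps19, with 3.07% shared sequence, rose from 0.173 and 0.139 to 59 and 61.3 FPKM, and Rps26 from 6.44 and 6.53 to 494 and 467 FPKM. Riok1, a kinase of small-subunit maturation, went the other way, from 377 and 370 to 29.5 and 27.7 FPKM (log2 difference -3.66, SE 0.13). Among translation initiation factors 28 of 41 rose and 8 fell (median 1.13), or 5 fell after scaling to equal sums. Eif3g, a subunit of the factor that recruits mRNA to the small subunit, rose from 7.74 and 5.81 to 107 and 88 FPKM, while Eif1b fell from 120 and 128 to 11.1 and 15.3 FPKM. The aminoacyl-tRNA synthetases, which charge tRNAs, changed in both directions, with 9 of 21 higher and 9 lower (median -0.45). Of all tested genes 30.4% were higher and 37.2% lower, so this count says little about the list. Yars rose from 0.0827 and 0.111 to 6.23 and 3.86 FPKM, and Lars fell from 10.3 and 9.82 to 0.997 and 0.747 FPKM.

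**Figure D3:**
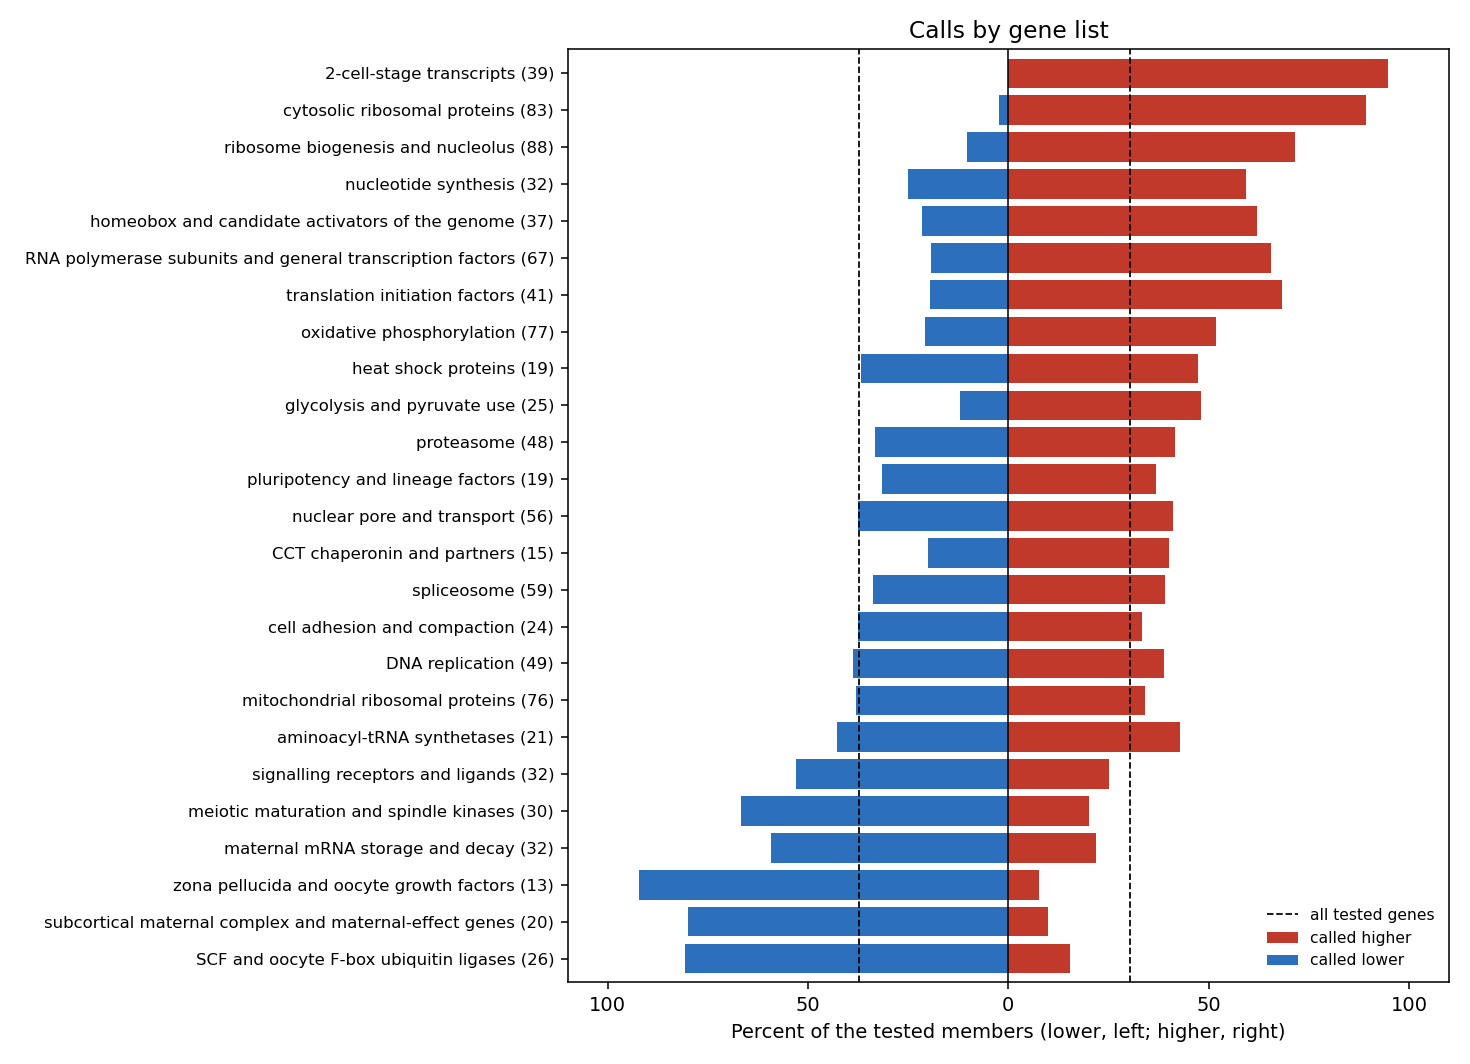
Share of the tested members of each gene list (number tested in brackets) called higher (right, red) or lower (left, blue) in IVF 2-cell against 1-cell embryos, with lists ordered by their median log2 difference. Dashed lines mark the 30.4% higher and 37.2% lower of all tested genes. The bars reach furthest to the right for 2-cell-stage transcripts (37 of 39 higher) and cytosolic ribosomal proteins (74 of 83), and furthest to the left for zona pellucida and oocyte growth factors (12 of 13 lower) and SCF and oocyte F-box ubiquitin ligases (21 of 26).

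Enzymes that make nucleotides were among the genes that started from almost nothing. Of 32 tested, 19 were higher and 8 lower (median 1.27), and 8 were switched on. Prps1, which makes the activated ribose that all nucleotides are built on, rose from 0.28 and 0.469 to 273 and 284 FPKM. Ppat, the first committed enzyme of purine synthesis, rose from 0.461 and 0.708 to 175 and 135 FPKM (log2 difference 6.61, SE 0.25). Adsl, a later enzyme of the same pathway, rose from 0.29 and 0.634 to 35 and 29.1 FPKM. The fallen members included Adss, which makes adenylosuccinate, from 131 and 133 to 35 and 33.6 FPKM.

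Genes of energy metabolism were called higher more often than lower, though some fell steeply. Of all tested genes 30.4% were higher and 37.2% lower. Of 77 genes of oxidative phosphorylation 40 were higher and 16 lower (median 0.63). Ndufa2 and Ndufa8, both accessory subunits of respiratory complex I, changed in opposite directions: Ndufa2 rose from 17.5 and 14.7 to 160 and 147 FPKM, and Ndufa8 fell from 51 and 49.6 to 1.45 and 1.04 FPKM. Of 25 genes of glycolysis and pyruvate use 12 were higher and 3 lower (median 0.39). Brp44, a subunit of the mitochondrial pyruvate carrier, rose from 1.53 and 1.73 to 31.3 and 29.5 FPKM. Ldhb, the lactate dehydrogenase subunit common in oocytes (uncertain), fell from 1010 and 991 to 94.6 and 78.3 FPKM. The glucose transporters Slc2a3 and Slc2a1 changed in opposite directions, with Slc2a3 rising from 0.0294 and 0.0158 to 1.53 and 1.7 FPKM and Slc2a1 falling from 9.18 and 8.46 to 1.74 and 1.82 FPKM, still above Slc2a3.

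Subunits of several large complexes changed in opposite directions. For the spliceosome, proteasome, nuclear pore and transport, DNA replication and mitochondrial ribosomal protein lists, the shares called lay near those of all tested genes. Those were 30.4% higher and 37.2% lower, so the counts say nothing particular about these lists. In the spliceosome 23 of 59 members rose and 20 fell (median 0.03), or 11 fell after scaling to equal sums. Within its ring of Sm proteins, Snrpd2 rose from 3.35 and 3.74 to 132 and 120 FPKM and Snrpb from 1.16 and 1.4 to 41.6 and 32.7 FPKM, while Snrpd3 fell from 584 and 555 to 135 and 154 FPKM. Snrpd2 and Snrpd3 were thus far apart in 1-cell embryos and at similar levels in 2-cell embryos. In the proteasome 20 of 48 rose and 16 fell (median 0.2). Its core subunit Psmb1 rose from 14.8 and 18.3 to 203 and 208 FPKM, and Psma7, of the same core, fell from 310 and 355 to 24.1 and 25.1 FPKM. Among nuclear pore and transport genes 23 of 56 rose and 21 fell (median 0.07). The pore scaffold genes Nup37 and Nup85 fell, Nup37 from 266 and 268 to 14.4 and 14.5 FPKM. In DNA replication 19 of 49 rose and 19 fell (median -0.11), or 11 fell after scaling to equal sums. Of the 3 subunits of the single-strand binding protein, Rpa2 rose from 9.03 and 8.38 to 77.4 and 64.1 FPKM and Rpa1 fell from 16 and 14.9 to 1.45 and 1.75 FPKM. Rpa3 was also called lower. Mitochondrial ribosomal proteins (26 of 76 higher and 29 lower, median -0.13) and the CCT chaperonin with its partners (6 of 15 higher and 3 lower, median 0.06, or 10 higher after scaling) were likewise mixed. Pfdn4, a prefoldin subunit that hands proteins to CCT, fell from 1190 and 1110 to 37.4 and 37.9 FPKM. Of 19 heat shock genes 9 rose and 7 fell (median 0.61): Bag3, a co-chaperone, rose from 0.123 and 0.0331 to 7.19 and 5.09 FPKM, and Dnajb1 fell from 12.3 and 11.2 to 4.58 and 3.67 FPKM.

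The switched-on genes were compared with the donor cumulus cells, which stand here for an ordinary body cell. Of the 612, 412 (67.3%) were at 1 FPKM or more in both donor libraries, against 71.7% of all tested genes, and 100 (16.3%) were below 0.1 FPKM in both, against 11.8%. The share expressed in donor cells was close to that of all tested genes, but the comparison is not a like one. A gene could enter the test through the donor libraries alone, while the switched-on genes passed the filter in the 2-cell libraries. No conclusion is drawn from these shares. Gm2a, a lysosomal activator protein, was among the genes expressed there, with 2230 and 2220 FPKM in donor cells, 0.309 and 0.0733 FPKM in 1-cell and 140 and 135 FPKM in 2-cell IVF embryos. Pramel7, a PRAME family member, stood for the other kind, with 0.0188 and 0.0758 FPKM in donor cells, 0.0111 and 0.227 FPKM in 1-cell and 102 and 115 FPKM in 2-cell embryos. Ubtfl1, an intronless relative of the nucleolar factor Ubtf, also belonged to it, with 0.347 and 0.106 FPKM before and 90.1 and 94.1 FPKM after. Of the lost genes, 51.1% were at 1 FPKM or more in both donor libraries and 30.1% were below 0.1 FPKM in both.

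The sequences before the start sites show how different such genes can be. For each kind, the switched-on genes with the highest 2-cell level, a named symbol, no more than 15% shared sequence and an entry in the promoter table were taken, and 2 of each kind are printed as the 250 bases before the annotated start (RefSeq, GRCm38.p6), on the gene's strand, 5′ to 3′. Capitals mark, on either strand, the TATA box (letters TATAAA), the CCAAT box (its name gives the letters), an ETS core (letters CCGGAAG) and a core bound by bicoid-type homeodomains (letters TAATCC). None of these strings contains another. The first 2 genes were near 0 in donor cells and the last 2 were expressed there. Their windows lie at chr2:87492419-87492668 (minus strand), chr9:18404168-18404417 (plus strand), chr7:66079399-66079648 (plus strand) and chrX:140456353-140456602 (plus strand).
Pramel7: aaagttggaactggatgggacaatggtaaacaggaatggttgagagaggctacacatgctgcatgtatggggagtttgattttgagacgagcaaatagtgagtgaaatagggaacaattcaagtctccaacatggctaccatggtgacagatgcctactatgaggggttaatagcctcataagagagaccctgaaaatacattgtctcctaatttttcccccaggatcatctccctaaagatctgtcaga
Ubtfl1: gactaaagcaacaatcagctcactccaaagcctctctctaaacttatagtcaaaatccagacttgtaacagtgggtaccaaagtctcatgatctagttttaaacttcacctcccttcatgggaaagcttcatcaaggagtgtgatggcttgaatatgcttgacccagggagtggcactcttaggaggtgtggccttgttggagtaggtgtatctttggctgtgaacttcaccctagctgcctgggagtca
H47: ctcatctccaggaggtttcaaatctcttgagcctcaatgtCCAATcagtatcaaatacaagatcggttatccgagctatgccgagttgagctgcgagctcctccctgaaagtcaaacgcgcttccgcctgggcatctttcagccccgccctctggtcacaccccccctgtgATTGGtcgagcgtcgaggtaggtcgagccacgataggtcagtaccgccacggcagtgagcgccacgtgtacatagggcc
Prps1: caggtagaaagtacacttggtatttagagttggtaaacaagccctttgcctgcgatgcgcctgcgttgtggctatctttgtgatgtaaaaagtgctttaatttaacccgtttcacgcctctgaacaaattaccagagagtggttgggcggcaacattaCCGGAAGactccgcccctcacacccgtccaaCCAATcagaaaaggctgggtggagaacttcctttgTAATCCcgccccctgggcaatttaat

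In the windows of Pramel7 and Ubtfl1 none of the 4 strings was found, and the dinucleotide CG occurred 1 time and 0 times, against a median of 6 over the 27025 promoters of the table. H47 had 17 and Prps1 10. The window of H47 held the CCAAT box, which occurs in 34.5% of all promoters in a window of this length. That of Prps1 held the CCAAT box, the ETS core (7.05% of all promoters) and the homeodomain core (6.38%). The TATA box, found in 13.0% of all promoters, occurred in none of the 4 windows. The table held a promoter for only 474 of the 612 switched-on genes (77.5%), below 80%, so a comparison of promoter content between classes of genes is void and none is given.

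The steepest fall of all was that of Gm813, from 638 and 671 to 6.05 and 7.57 FPKM (log2 difference -6.4, SE 0.22). Among genes with a symbol other than a Gm number or a Rik name, Rgs2, a regulator of G-protein signalling, and Crabp2, a carrier of retinoic acid, fell 54.7-fold and 57.9-fold on the FPKM + 1 scale, Rgs2 from 389 and 415 to 6.09 and 6.63 FPKM. Oas1d, Oas1e and Oas1h, of a family related to 2′-5′ oligoadenylate synthetases, fell together, Oas1d from 988 and 969 to 27.2 and 23.3 FPKM (log2 difference -5.23, SE 0.12, limma adjusted p = 1.7e-10). Glrx, a glutaredoxin, fell from 129 and 136 to 2.25 and 2.54 FPKM. Atpbd4, an enzyme of diphthamide synthesis, fell from 277 and 277 to 4.85 and 6.48 FPKM. Cmtm8, a membrane protein of the CKLF-like family, fell from 78.8 and 78.9 to 1.21 and 0.512 FPKM. These genes, too, were chosen for a large change and for stages that do not overlap.

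Genes that mark the oocyte fell, with few exceptions. Of 13 zona pellucida and oocyte growth factor genes 12 were lower and 1 higher (median -1.85). Bmp15, a growth factor by which the oocyte signals to its cumulus cells, fell from 1200 and 1250 to 105 and 110 FPKM. Nobox, an oocyte homeobox factor, fell from 75 and 73.1 to 3.02 and 1.89 FPKM. The exception was Zp3, a protein of the egg coat, which rose from 22.2 and 20.9 to 62 and 50 FPKM (log2 difference 1.33, SE 0.17, limma adjusted p = 2.2e-05) while Zp2, another coat protein, fell from 31.4 and 32.9 to 9.5 and 10.1 FPKM. Of 20 maternal-effect genes, many of which the early embryo needs from its mother, 16 were lower and 2 higher (median -2.34). Ooep and Nlrp5, both of the subcortical maternal complex, fell, Ooep from 424 and 456 to 15 and 15.6 FPKM. Trim28, a corepressor that guards imprints, was 1 of the 2 that rose, from 9.09 and 10.8 to 36.1 and 28.2 FPKM.

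The oocyte's protein turnover genes formed the lowest list. Of 26 genes of SCF ubiquitin ligases and oocyte F-box proteins 21 were lower and 4 higher (median -2.69). Fbxw20 fell from 300 and 282 to 6.12 and 9.33 FPKM and Fbxw22 from 331 and 317 to 8.65 and 9.17 FPKM, both from a cluster of oocyte F-box genes. Fbxo43, which holds the egg in meiotic arrest by blocking the anaphase-promoting complex, fell from 44.1 and 45.8 to 4.01 and 4.76 FPKM. Fbxo15 and Skp2 rose, Skp2, which targets cell cycle inhibitors, from 4.68 and 5.03 to 27 and 29.7 FPKM.

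Genes that store and remove maternal mRNA fell more often than they rose. Of 32 such genes 19 were lower and 7 higher (median -1.39). Dazl, an RNA-binding protein of germ cells, fell from 446 and 448 to 22.1 and 24.6 FPKM. Cnot7 and Cnot6l, deadenylases of the CCR4-NOT complex, fell, Cnot7 from 417 and 409 to 61.5 and 68.1 FPKM. Dis3, a ribonuclease of the RNA exosome, rose from 0.957 and 1.57 to 25.5 and 27.8 FPKM. Of 30 genes of meiotic maturation and spindle kinases 20 were lower and 6 higher (median -1.24). Ttk, a kinase of the spindle checkpoint, fell from 123 and 118 to 9.42 and 8.95 FPKM. Map2k1, a kinase of the MAP kinase pathway, fell from 161 and 144 to 14.7 and 19 FPKM. Cdk1, the main mitotic kinase, rose from 23.2 and 24.9 to 194 and 173 FPKM, and Ccne1, the cyclin that partners Cdk2, rose from 1.37 and 1.43 to 116 and 91.5 FPKM.

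In several gene families an oocyte form fell while a general form rose. Of 26 families examined, the stage-specific form was called lower in 16, and in 15 of these at least 1 general form was tested. In 11 of the 15 a general form was called higher, where a family with several general forms had more chances of this. Over all 15, 17 of the 34 general forms tested were higher, 10 were lower and 7 were not called. Of all tested genes 30.4% were higher and 37.2% lower. Pabpc1l, the poly(A)-binding protein of oocytes, fell from 13.1 and 14.9 to 0.253 and 0.539 FPKM, and Pabpc1, the general form, rose from 0.548 and 0.62 to 45 and 38.9 FPKM. Kpna7, the oocyte importin alpha, fell from 60 and 60.6 to 6.32 and 4.74 FPKM, and Kpna1 rose from 0.183 and 0.145 to 137 and 134 FPKM. In both pairs the order of the levels in FPKM, a scale that is per length, was the opposite at the 2 stages. The other importin alpha genes did not all follow Kpna1: Kpna3 fell from 194 and 193 to 80.1 and 81.6 FPKM and lay above Kpna7 at both stages, and Kpna2 (uncertain) was not called. Btg4, an adaptor that recruits deadenylases to maternal mRNA, fell from 5370 and 5250 to 865 and 920 FPKM, and its relative Btg1 rose from 3.34 and 3.02 to 127 and 141 FPKM, still below Btg4. Bcl2l10, an anti-apoptotic protein of oocytes, fell from 3970 and 3730 to 253 and 258 FPKM, and Mcl1 rose from 1.87 and 1.63 to 31.3 and 29.1 FPKM, still below it, while the general form Bcl2l1 fell by 1.4 on the log2 scale.

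Opposite changes were also called in other families. Tbpl2, the TATA-binding protein relative of oocytes, fell by 3.26 on the log2 scale and Tbp (uncertain) rose by 0.83. Eif4e1b, a cap-binding protein of oocytes, fell by 3.54 and Eif4e2 rose by 2.33, while Eif4e rose by only 0.49 (limma adjusted p = 0.048). Wee2 and Wee1, oocyte and general inhibitors of Cdk1, changed by -1.29 and 1.56, and Cpeb1 and Cpeb4, which control polyadenylation of stored mRNA, by -1.78 and 1.31. Their relative Cpeb3 fell by 0.87. Ybx2 fell by 1.61 and Ybx1 (uncertain) rose by 1.37, and Aurkc (uncertain) fell by 2.57 and Aurkb rose by 2.34. H1foo, the linker histone of oocytes, fell from 618 and 565 to 53.6 and 43.2 FPKM, and of the somatic linker histones Hist1h1b rose from 0.431 and 0.169 to 17.1 and 10.8 FPKM. Another somatic linker histone, H1f0, fell from 10.9 and 9.47 to 2.8 and 3.44 FPKM. Hist1h1a stood at 137 and 133 FPKM and then 104 and 85.8 FPKM and was not called. In 4 of the 15 families no general form was called higher. Lsm14b and Lsm14a, proteins of stored mRNA particles, both fell, by 1.47 and 1.62. Npm2, the nucleoplasmin of oocytes, and Npm1 (uncertain) both fell by 2.65 and 0.73, though Npm1 changed by -0.21 (limma adjusted p = 0.31) after scaling to equal sums. Dnmt3l, a cofactor of de novo DNA methylation, fell by 1.4 and the methyltransferases Dnmt3a and Dnmt3b by 0.64 and 0.82. Zar1 (uncertain) and Zar1l, zinc finger proteins of oocytes, fell by 4.31 and 1.21. Zar1l was counted as the general form of this family, though it was at 0 FPKM in both donor libraries. The falls of Cpeb3, Dnmt3a and Dnmt3b were not called after scaling to equal sums. In cyclin B, Ccnb3 was not called while Ccnb1 (uncertain) and Ccnb2 fell. Wee2 fell but at 102 and 116 FPKM stayed above Wee1. The families were chosen with earlier results of these data known, and the number that moved this way supports nothing further.

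**Figure D4:**
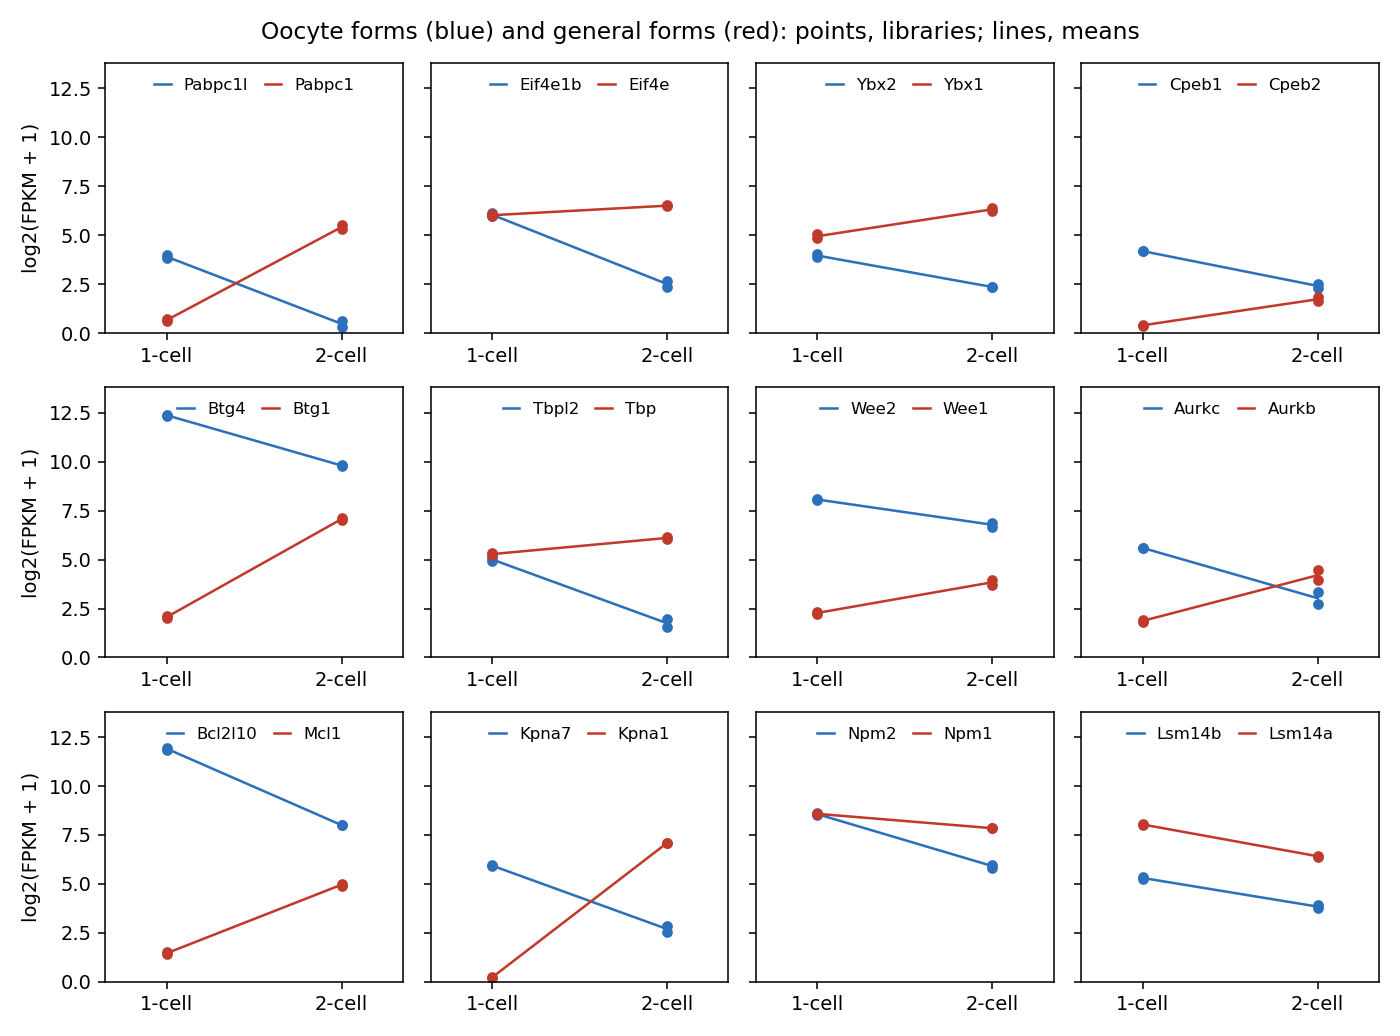
Levels of an oocyte form (blue) and 1 general form (red) in 12 of the gene families, as log2(FPKM + 1) (vertical) in IVF 1-cell and 2-cell embryos (horizontal), with points for the 2 libraries of each stage and lines through their means. The lines cross for Pabpc1l with Pabpc1, Kpna7 with Kpna1 and Aurkc with Aurkb, Eif4e1b and Eif4e start at overlapping levels, and both forms fall for Npm2 with Npm1 and Lsm14b with Lsm14a.

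Some maternal transcripts stayed abundant. Dppa3, a maternal protein that protects the maternal genome from demethylation, was the most abundant gene at both stages, at 8950 and 9050 FPKM and then 5890 and 6160 FPKM (uncertain). Its fall of 0.58 on the log2 scale had a limma adjusted p of 0.041, and of 0.83 after scaling to equal sums. Omt2b, an oocyte transcript, was not called, at 3230 and 3180 and then 4090 and 4230 FPKM, and Wtap, a subunit of the mRNA methyltransferase, was not called at 1350 and 1290 and then 1470 and 1500 FPKM. After scaling to equal sums both were called higher, by 0.90 and 0.70 on the log2 scale. Other genes of the first rank fell: Pttg1, which encodes securin, went from 7580 and 7470 to 1580 and 1460 FPKM, and Spin1, a reader of histone methylation, from 4120 and 3890 to 507 and 507 FPKM.

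Genes of later development changed in both directions, at shares near the 30.4% higher and 37.2% lower of all tested genes for pluripotency factors and adhesion genes. Of 19 pluripotency and lineage factors 7 were higher and 6 lower (median 0.11), or 2 lower after scaling to equal sums. Klf4, a pluripotency factor, rose from 1.56 and 1.53 to 16.8 and 15.7 FPKM, and Tbx3 from 0.783 and 0.764 to 11.9 and 10.7 FPKM. Pou5f1 (uncertain), which encodes Oct4, fell from 7.57 and 9.27 to 2.53 and 4.68 FPKM, and was not called after scaling to equal sums (-0.62, limma adjusted p = 0.10). Gata3, a trophectoderm factor, fell from 32.5 and 33.6 to 2.5 and 3.43 FPKM. Of 24 adhesion genes 8 rose and 9 fell (median -0.03): Epcam and Cldn6 rose, Epcam from 1.22 and 1.03 to 60.3 and 69.4 FPKM, and Rdx, which links membrane and actin, fell from 699 and 709 to 66.9 and 65.7 FPKM. Of 32 signalling genes 8 rose and 17 fell (median -0.59), or 11 fell after scaling to equal sums. Fgf4, a growth factor of the blastocyst's inner cells, was at 0.00651 and 0 FPKM before and 26.6 and 20.9 FPKM after.

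A few markers of other cells moved with the stage. Gja1, the gap junction protein connexin 43, rose from 0.742 and 0.635 to 63.9 and 53.9 FPKM and made up most of the summed cumulus markers named above. Of 20 markers of cumulus and granulosa cells tested, 7 were higher and 0 lower in limma's test (median 0.13), with 0 lower at an unadjusted p under 0.05 and up to 2 lower under other settings. Spp1, at 14400 FPKM on average in donor cells, rose from 0.07 and 0.602 to 9.18 and 18.7 FPKM, while Star, Inha, Inhba, Fshr and Foxl2 were not called. The part of cumulus RNA in these values was not tested. Prm2, a sperm protamine, was at 12.2 and 11.6 FPKM in 1-cell and 2.08 and 0.51 FPKM in 2-cell embryos (log2 difference -2.58, SE 0.46, limma adjusted p = 0.00034). Of 9 immune, red blood and endothelial markers 0 rose and 2 fell in limma's test, with 0 higher at an unadjusted p under 0.05 and 4 higher with a pseudocount of 0.1.

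Rising and falling genes also differed in build. Genes called higher spanned a median of 14.2 kb and had a median of 6 exons in their longest transcript, genes called lower 30.7 kb and 8 exons, and switched-on genes 10.3 kb and 5 exons, against 20.8 kb and 7 exons for all tested genes. Of the 770 single-exon genes 39.1% were called higher and 30.9% lower, and of the 1465 genes with over 20 exons 24.4% were called higher and 43.1% lower. Switched-on genes made up 7.53% of the former and 1.64% of the latter. After scaling to equal sums the share called higher still ran from 43.2% to 30.8%, and the share called lower from 23.1% to 29.3%. Genes with over 20 exons also had longer transcripts, at a median of 5740 bases against 2710 for single-exon genes, and the part of length was not tested. Over the autosomes and the X chromosome, the share of tested genes called higher lay between 21.7% on chromosome 6 and 38.0% on chromosomes 17 and X. On the Y chromosome all 4 tested genes were called higher. A gene could pass the filter through the 2-cell libraries alone, so this count is no result about the chromosome. Genes are not independent replicates, so these shares are descriptions without a test.

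**Figure D5:**
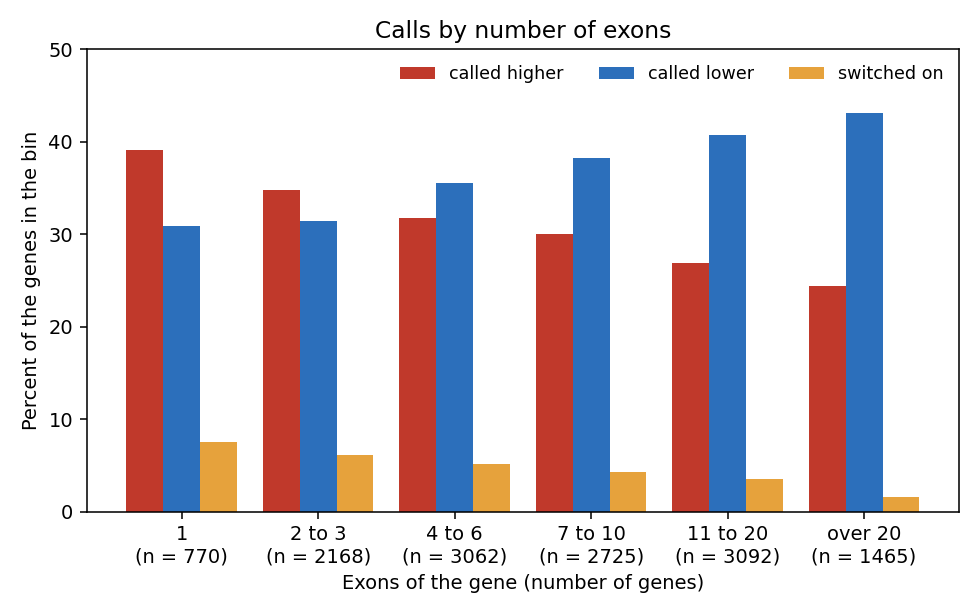
Percent of genes (vertical) called higher, called lower and switched on in IVF 2-cell against 1-cell embryos, by the number of exons in the longest annotated transcript (horizontal, with the number of genes). The share called higher falls from 39.1% at 1 exon to 24.4% at over 20 exons, and the share called lower runs the other way.

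The same division was also measured in the SCNT embryos, whose 1-cell and 2-cell libraries were in the same table. Recipient oocytes there were of B6D2F1 and donor nuclei of (C57BL/6J x CAST/EiJ) F1 strain, so embryo type and strain cannot be told apart. For the 12 largest rises and 12 largest falls among genes with a symbol other than a Gm number or a Rik name, the difference between the SCNT and the IVF stage change was tested as an interaction in limma, adjusted over all genes, where 3919 of 13453 genes (29.1%) were called. Of the 24 genes 20 were called, with all 12 rises and 8 of the 12 falls smaller in SCNT embryos. The genes had been chosen for the size of their IVF change, which favours this direction, and no count over them is support. Rfpl4b reached 253 and 270 FPKM in IVF 2-cell but 5.71 and 7.97 FPKM in SCNT 2-cell embryos. Mt1 reached similar levels in both kinds, 2670 and 2450 FPKM and 2950 and 2440 FPKM, and the SCNT 1-cell libraries held 32.4 and 47.1 FPKM against 9.59 and 9.21 FPKM in IVF. The falls that were not called as different were those of Neil3, Cmtm8, Oas1e and Oog4.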

How the data were processed

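RNA was measured in pools of whole embryos by cDNA synthesis with the SMARTer Ultra Low Input kit, Covaris fragmentation, NEBNext Ultra libraries and Illumina sequencing of single 50-base reads, per the labels' protocols. Novoalign, Cufflinks 2.0.2 and build mm9 are named in the submitters' processing notes. FPKM values were made and deposited by the authors in a table of 23697 rows. The annotation and the handling of reads that fit several places or carry CAST/EiJ alleles are not stated there. Counts and total depth are unknown. Relative depth was read from the steps between low values.

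Of these rows, 804 of short RNAs were left out and 630 that shared a symbol were summed. Values were used as log2(FPKM + 1) without scaling, which understates changes near 0. limma 3.58.1 in R 4.3.3, with a variance trend over intensity, 7 residual and a median of 4.71 prior degrees of freedom, was fitted to all 7 groups of 2 libraries, so that they share an estimate of the spread, with Benjamini-Hochberg adjustment over 13453 genes at 0.05. On simulated data for this comparison, with 13453 genes of which 200 were changed, 66% of 2-fold and 99% of 4-fold changes were recovered and 5.17% of calls were false. The changed genes were drawn from the better expressed genes only, and were far fewer than the 9090 called here. These rates therefore do not describe genes near 1 FPKM or a comparison in which most genes change. Sequence shared between genes was measured in steps of 10 bases on GENCODE M21 transcripts for 13282 genes, which also gave the exon numbers. Promoters came from RefSeq. Start coordinates in the table count from 0, and 1 was added.

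The genes named were the 12 largest rises and 12 largest falls with a mean of at least 5 FPKM, no overlap between libraries and a symbol that is not a Gm number or a Rik name, up to 3 risen and 3 fallen members of each list, the 10 most abundant genes of each stage, the 6 most abundant genes not called, and the members of the gene families. Adsl, Arg2, Cnot6l, Cnot7, D5Ertd577e, Gabpa, Gm2a, Gm813, Kdm5b, Nfyb, Nfyc, Nlrp5, Nop2, Pramel7, Rpa3, Slc34a2, Snrpd3, Ubtfl1, Yy1, Zfp352, Zp2, Zscan4d, Zscan5b, the genes of the runs and the cumulus markers that were not called were chosen after their values were seen. Members, lists and families were chosen with earlier results of these data known. Alternatives were another pseudocount, other filters, 2 scalings, a fit to the 4 IVF libraries, the replicate number as a block, short RNAs kept, the strongest row for a repeated symbol, and each library left out.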

Additional observations from a re-analysis of the deposited data

Results flagged for a closer look

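The stage change differed between SCNT and IVF embryos, by limma's interaction test, for 20 of 24 genes with large IVF changes (the 12 largest rises and 12 largest falls among symbols other than Gm numbers and Rik names). Each value is the SCNT minus the IVF log2 difference, so a negative value marks a smaller rise in SCNT embryos. Among regulators and 2-cell-stage genes it was -2.96 for Obox6, -2.84 for Crxos1, -3.29 for Spic, -1.52 for Trim43a, -1.69 for Trim43b and -4.48 for Rfpl4b. For the other rises it was -1.88 for Mt1, -2.97 for H47, -2.33 for Prps1, -2.33 for Timd2, -2.53 for Nop16 and -2.1 for Ctsl. A positive value marks a smaller fall in SCNT embryos, and it was 1.62 for Crabp2, 2.35 for Rgs2, 1.63 for Oas1h, 1.18 for Atpbd4, 1.39 for Glrx, 0.95 for D6Ertd527e, 0.72 for Oas1d and 1.18 for Fbxw20. Crxos1, Trim43a, Trim43b and Ctsl share sequence with other genes. All 24 were chosen for a large IVF change. A value can reflect a different 1-cell start as well as a different 2-cell level, and these were not tested apart. D6Ertd527e was at 575 and 604 FPKM in SCNT and 1100 and 1020 FPKM in IVF 1-cell libraries. In the 2-cell libraries it was at 24.6 and 33.9 and at 26 and 27.7 FPKM. Rgs2 differed at both stages: 269 and 279 against 389 and 415 FPKM, then 25 and 24.2 against 6.09 and 6.63 FPKM. The number called was 15 to 20 under the alternatives, the lowest with quantile normalization and without 1-cell replicate 2. Trim43a was not called after scaling to equal sums (-1.12, limma adjusted p = 0.082).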

How the results depend on the processing

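The numbers of genes higher, lower and switched on kept within 1.5 times of their values under all 13 alternatives. Lost genes fell from 176 to 96 after scaling to equal sums, which raises the 2-cell values relative to the 1-cell values. Both limits in the definition of a lost gene can be affected by this, and their parts were not tested apart. Leaving out a single library gave 3596 to 3744 higher, 4379 to 4491 lower, 653 to 687 switched on and 198 to 239 lost genes, where the lone library of a stage is assumed to vary like the other groups. The fit to the 4 IVF libraries gave 4673 higher and 5556 lower genes. Whether the replicate numbers pair the libraries is not given by the labels. The deviations of the first replicates from their stage means correlated at 0.016, but 2 pairs are too few to decide this. With the replicate block 4061 genes were higher and 4991 lower. Of 254 genes under the naming rule, 236 were called and 221 kept their direction and side of the threshold under every alternative. With quantile normalization 3 genes turned direction: H3f3b to 0.68, Oog3 to 0.06 and Rps27l to 0.91. Calls that were lost in at least 1 alternative included those of Dppa3, Pou5f1, Tbp, Npm1 and Btg2. The cause was not tested. With 2 libraries a stage, small changes are missed, and FPKM near 1 rests on few reads in the shallower 2-cell libraries.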
